A study of Mus musculus with 17 samples.

Results

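Tgfb1, Tgfbr1, Tgfbr2 and Tgfbi were followed across tumor macrophages and the marrow myeloid cells of the same breast cancer model. The 4 genes were taken by symbol from a table of 10207 named genes, as the TGF-beta ligand of immune cells, both chains of its signaling receptor and a matrix gene named for its induction by the ligand. Each of the 4 was in the table, and each was among the 7518 genes with enough counts to be tested.

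Tumor-associated macrophages (TAM, 3 libraries) were sorted as CD11b+ Gr1- F4/80+ cells from tumors of female BALB/c mice into whose mammary fat pad 100000 4T1-luc cells had been injected. 4T1-luc is a mouse mammary carcinoma line that carries luciferase. Tumors were harvested once they had reached 1 cm, and the labels give these mice an age of 8 weeks. The protocol gives that same age for the injection, so the age at harvest was later and is not stated. Marrow cells of tumor-bearing mice (BMDM_T, 4 libraries, also 8 weeks) were sorted as CD11b+ Gr1+ F4/80low. The same gate was used on marrow of healthy BALB/c females of 12 weeks (BMDM_H, 4 libraries), which received no tumor cells. The labels name no engineered allele in any group. Although the healthy mice are described as age-matched, the label ages differ and the ages at harvest cannot be compared, so tumor and age cannot be told apart. Between tumor and marrow, the gate, the tissue and the enzyme digestion of the tumor also differ and cannot be told apart from one another.

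TGF-beta is secreted as a latent complex and must be released before it can bind. It then engages the type II receptor, encoded by Tgfbr2, which activates the type I receptor, encoded by Tgfbr1, and this kinase phosphorylates SMAD2 and SMAD3, which enter the nucleus with SMAD4. In myeloid cells the pathway is known for restraining inflammatory gene expression and for matrix and repair programs, and tumors often hold much of the ligand. TGFBI, the product of Tgfbi, is a secreted matrix protein that binds integrins and collagen.

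All 4 genes lie on autosomes in mm10 (GENCODE M21 annotation, GRCm38), and each is protein coding. Tgfb1 is at chr7:25687002-25705077 on the plus strand, Tgfbr1 at chr4:47353222-47414931 on the plus strand, Tgfbr2 at chr9:116084293-116175360 on the minus strand and Tgfbi at chr13:56609523-56639562 on the plus strand. No other annotated gene overlaps any of them, so reads shared with an overlapping gene are not a concern at these loci. Because the 4 genes moved together between TAM and marrow, the bases just before their first annotated start are shown, 5′ to 3′ on the strand of the gene, from RefSeq (GRCm38.p6). Capitals mark the GC box GGGCGG on either strand. The windows are chr7:25686752-25687001 (Tgfb1), chr4:47352972-47353221 (Tgfbr1), chr9:116175364-116175613 (Tgfbr2, minus strand) and chr13:56609336-56609522 (Tgfbi).
Tgfb1: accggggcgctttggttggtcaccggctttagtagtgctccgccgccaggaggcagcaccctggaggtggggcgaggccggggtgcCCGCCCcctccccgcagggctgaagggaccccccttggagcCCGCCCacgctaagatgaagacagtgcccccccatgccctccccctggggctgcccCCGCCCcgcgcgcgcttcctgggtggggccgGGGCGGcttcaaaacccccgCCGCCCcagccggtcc
Tgfbr1: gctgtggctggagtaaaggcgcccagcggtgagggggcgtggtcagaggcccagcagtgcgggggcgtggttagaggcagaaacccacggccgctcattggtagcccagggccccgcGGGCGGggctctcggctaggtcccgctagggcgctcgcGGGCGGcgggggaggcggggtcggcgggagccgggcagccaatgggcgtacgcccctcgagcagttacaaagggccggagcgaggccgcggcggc
Tgfbr2: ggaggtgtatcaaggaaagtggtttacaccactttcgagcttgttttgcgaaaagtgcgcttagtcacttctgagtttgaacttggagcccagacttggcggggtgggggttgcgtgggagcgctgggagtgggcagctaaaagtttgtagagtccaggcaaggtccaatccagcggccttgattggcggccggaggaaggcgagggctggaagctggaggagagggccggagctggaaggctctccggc
Tgfbi: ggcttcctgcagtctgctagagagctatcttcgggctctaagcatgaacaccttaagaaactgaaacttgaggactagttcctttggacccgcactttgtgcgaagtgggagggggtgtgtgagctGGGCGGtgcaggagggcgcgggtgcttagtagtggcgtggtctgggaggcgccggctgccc

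The 4 windows did not share one architecture. The Tgfb1 window was 75.2% G and C and held 5 GC boxes, and the Tgfbr1 window was 74.8% G and C and held 2. These placed them at percentiles 96.1 and 95.8 of G and C content among 32851 RefSeq windows of 250 bases. The Tgfbr2 window was 58.4% G and C (percentile 67.8) and held no GC box. Over its 250 bases before the RefSeq start, Tgfbi had 62.4% G and C (percentile 77.5), and the 187 bases printed held 1 GC box. A GC box on either strand was present in 32.7% of all windows of 250 bases and in 22.2% of those of 187. The pentamer CAGAC, searched on both strands because a Smad-binding element contains it, occurred once in the Tgfbr2 window and at 2 places in the Tgfbi window. It was in 42.2% of all windows of 250 bases and 34.2% of those of 187, so its presence is common. The AP-1 letters TGANTCA (6.75% of windows of 250 bases) and TATAAA (12.4%) were in none of the 4 windows, and GAGGAA (23.3%) was in the Tgfbr2 window alone. No match overlapped a match of another motif. These are matches of letters, and binding was not measured.

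The 11 libraries held 387940 to 3747929 counts, and 2 of the healthy marrow libraries, replicates 3 and 4, had the lowest totals (556565 and 387940). The TAM libraries held the markers of their label: 10 of 11 macrophage markers were in the table, and their summed level was 61600 to 76000 CPM in TAM, 2270 to 2730 in BMDM_T and 2820 to 3790 in BMDM_H. CPM are counts relative to library size, scaled with TMM factors. The data went against the marrow label of monocytes: 11 of 12 neutrophil markers summed to 341 to 581 CPM in TAM, to 166000 to 200000 CPM in BMDM_T and to 137000 to 210000 CPM in BMDM_H, while 8 monocyte markers summed to 6400 to 8210, 1690 to 2270 and 2520 to 4360 CPM. The marrow groups are therefore called by their gate. In such bulk samples, fewer cells of a type and less RNA per cell cannot be told apart, and the part of these marker differences in the results below was not tested.

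Tumor macrophages had more RNA of the ligand, of both receptor chains and of Tgfbi than either marrow group. Tgfbr1 was 4.97-fold higher than in BMDM_T and 4.57-fold higher than in BMDM_H, Tgfbi 2.98-fold and 4.84-fold, Tgfbr2 3.49-fold and 3.45-fold, and Tgfb1 1.65-fold and 1.81-fold. Both comparisons use the same 3 TAM libraries. All 4 genes were called higher in each, at a Benjamini-Hochberg adjusted p under 0.05 in edgeR's quasi-likelihood test. Of the 7518 genes tested, 30.1% were called higher in TAM than in BMDM_T and 28.0% higher than in BMDM_H. Another 28.7% and 28.3% were called lower, so that 58.9% and 56.3% were called in all. No TAM library overlapped a marrow library for any of the 4 genes, as held for 58.1% of all genes against BMDM_T and 53.8% against BMDM_H. A difference between tumor and marrow cells was thus common in these data.

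Tgfb1, the ligand, was detected at 349, 243 and 261 CPM in the TAM libraries. It was at 202, 164, 136 and 184 CPM in BMDM_T and at 174, 150, 117 and 187 CPM in BMDM_H. Every TAM library was above every marrow library, with TAM replicate 1 standing above the other two, and the marrow groups overlapped. Its 95% counting interval, 323 to 378 CPM, did not reach those of TAM replicates 2 and 3, at 221 to 266 and 245 to 278 CPM. The means were 285 ± 57 CPM in TAM (SD, n = 3), 172 ± 28.4 in BMDM_T and 157 ± 30.7 in BMDM_H (SD, n = 4 each). The log2 fold change was 0.73 ± 0.18 (SE) against BMDM_T, with an adjusted p of 0.00198 in edgeR. It was 0.86 ± 0.19 against BMDM_H (adjusted p = 0.000615 in edgeR).

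Tgfbr1, the type I receptor kinase, had 103, 111 and 131 CPM in TAM. Its levels were 21.5, 25.2, 20.8 and 24.4 CPM in BMDM_T and 20.7, 21.7, 31.6 and 33.8 CPM in BMDM_H. The TAM libraries lay far above both marrow groups, and BMDM_T lay within the range of BMDM_H. The log2 fold change was 2.31 ± 0.20 against BMDM_T (95% interval 1.91 to 2.73, adjusted p = 3.58e-09 in edgeR). Against BMDM_H it was 2.19 ± 0.21 (95% interval 1.77 to 2.62, adjusted p = 1.75e-08 in edgeR). By the size of the p-value Tgfbr1 stood at rank 462 of 7518 against BMDM_T.

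Tgfbr2, the ligand-binding type II receptor, had the fewest counts of the 4 genes and varied most between replicates. It had 30.6, 57.8 and 60.8 CPM in TAM, 18.3, 18.5, 8.08 and 11.7 CPM in BMDM_T, and 16.7, 23.3, 0 and 7.81 CPM in BMDM_H. The marrow values rest on few counts, 17, 22, 7 and 13 in BMDM_T and 21, 29, 0 and 3 in BMDM_H. The count of 0 in BMDM_H replicate 3 allows a level of up to 5.58 CPM, taking 3 counts as the limit, which covers counting error only. TAM replicate 1 was lower than the other TAM libraries (counting intervals 23 to 39.8, 47.5 to 69.7 and 53.2 to 69 CPM), yet still above every marrow library. The coefficient of variation between replicates was 33.5% in TAM, 36.2% in BMDM_T and 85.3% in BMDM_H. The log2 fold change was 1.80 ± 0.40 against BMDM_T (95% interval 0.98 to 2.64, adjusted p = 0.000604 in edgeR). Against BMDM_H it was 1.79 ± 0.41 (95% interval 0.94 to 2.65, adjusted p = 0.00098 in edgeR).

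Tgfbi, the matrix gene, had 1158, 1271 and 1536 CPM in TAM. It had 459, 511, 451 and 355 CPM in BMDM_T and 314, 298, 264 and 206 CPM in BMDM_H. The 3 groups did not overlap, and the order TAM, BMDM_T, BMDM_H held for every library. The means were 1322 ± 194 CPM in TAM (SD, n = 3), 444 ± 64.8 in BMDM_T and 271 ± 48.2 in BMDM_H (SD, n = 4 each). The log2 fold change was 1.57 ± 0.18 against BMDM_T, a 2.98-fold difference (adjusted p = 2.6e-07 in edgeR). It was 2.27 ± 0.18 against BMDM_H, or 4.84-fold (adjusted p = 2.17e-09 in edgeR).

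**Figure D1:**
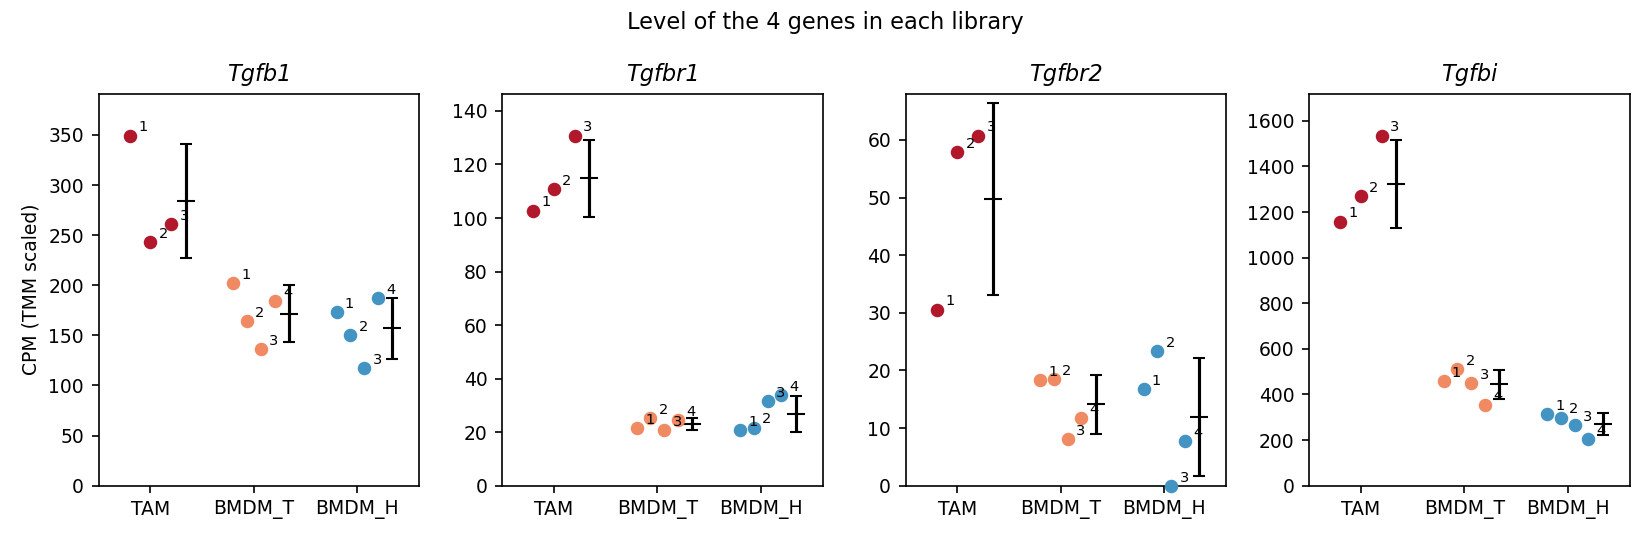
Level of each gene in CPM (y axis, from 0, a separate scale for each gene) in the TAM, BMDM_T and BMDM_H libraries; each point is a library with its replicate number, and the bar beside it is the mean with its SD. All TAM points lie above all marrow points for each gene, and only for Tgfbi are the marrow groups apart, with BMDM_T at 355 to 511 CPM and BMDM_H at 206 to 314 CPM.

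Within TAM, the ligand and the other 3 genes did not vary together by library. Replicate 1 had the highest Tgfb1 and the lowest Tgfbr1, Tgfbr2 and Tgfbi of the TAM libraries. With 3 libraries this is a description only. Platelet markers, which matter for Tgfb1 because platelets hold much of the ligand, were at 389 to 890 CPM in TAM, 62.4 to 118 in BMDM_T and 41.4 to 158 in BMDM_H as a sum over the list. Pf4, a platelet chemokine, averaged 576 CPM in TAM, 38.3 in BMDM_T and 49.2 in BMDM_H, while Ppbp averaged 0.543 CPM in TAM, 5.2 in BMDM_T and 7.8 in BMDM_H. Itga2b averaged 1.82, 23.1 and 28.8 CPM in the same order. The part of platelets in the Tgfb1 level was not tested.

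Between tumor-bearing and healthy mice, the marrow cells differed in Tgfbi and in none of the other 3 genes at the threshold. Tgfbi was 1.62-fold higher in BMDM_T, and its lowest BMDM_T library (355 CPM) was above its highest BMDM_H library (314 CPM), as held without overlap for 11.2% of all genes. Its log2 fold change was 0.70 ± 0.17 (95% interval 0.34 to 1.06) with an adjusted p of 0.0203 in edgeR. Of all genes tested, 2.82% were called higher in BMDM_T, 2.00% lower and 4.82% either way, a total of 362, made up of 212 higher and 150 lower. With total counts as the only scaling, the split was 155 higher and 218 lower, and all genes shifted by a median of -0.12 on the log2 scale. With the replicate number as a block over the marrow libraries alone, 662 genes were called.

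The Tgfbi call in marrow depended on which libraries were in the fit. Without BMDM_T replicate 2 its log2 fold change was 0.63 (adjusted p = 0.0668 in edgeR), without BMDM_H replicate 3 it was 0.69 (0.0577) and without BMDM_H replicate 4 it was 0.60 (0.0637). Without both of those healthy libraries, which had the lowest totals, it was 0.54 (adjusted p = 0.204 in edgeR). The direction held in each of the 20 alternatives, from 0.54 to 0.80, and the call in 15 of them. With total counts as the only scaling it was 0.59 (adjusted p = 0.0563 in edgeR). With the replicate number as a block over the marrow libraries it was 0.69 (adjusted p = 0.000789 in edgeR). The marker sums of macrophages and of monocytes moved the other way between the marrow groups. They were 2270 to 2730 and 1690 to 2270 CPM in BMDM_T, against 2820 to 3790 and 2520 to 4360 CPM in BMDM_H. Single markers did not all follow the sums. C1qa averaged 196 CPM in BMDM_T and 647 in BMDM_H, and Ly6c2 1040 and 1780. Apoe averaged 1800 and 1860 CPM, Csf1r, on both lists, 168 and 167, and Cd14 122 and 91.9. The neutrophil sums given above overlapped between the marrow groups, and their members split. Mpo averaged 1700 CPM in BMDM_T and 492 in BMDM_H, and Cxcr2 702 and 253. Elane, Retnlg, Csf3r, S100a8, S100a9 and Lcn2 were also higher on average in BMDM_T. Camp averaged 33100 and 46000 CPM and Ngp 27400 and 33700, and Ltf was also lower in BMDM_T. Red cell precursor markers summed to 6.31 to 20.2 CPM in BMDM_T and to 59.7 to 304 CPM in BMDM_H. The part of these differences in the Tgfbi result was not tested.

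**Figure D2:**
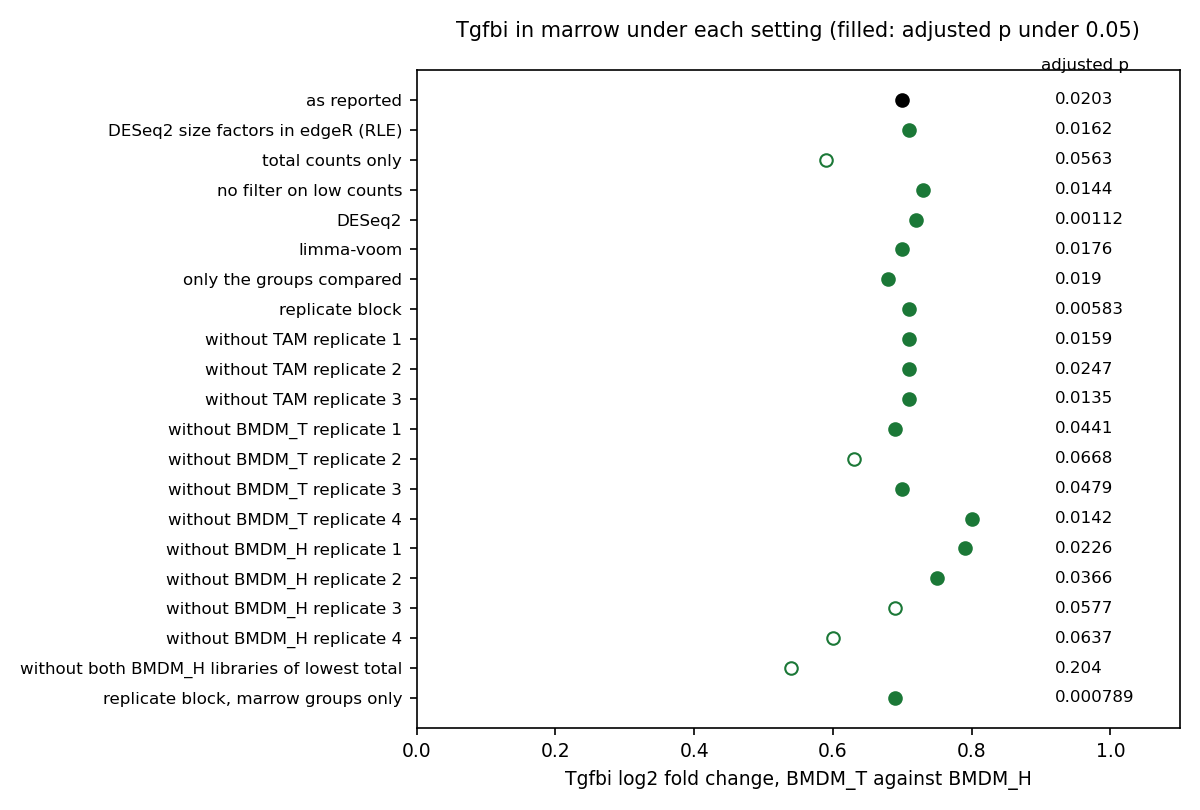
Log2 fold change of Tgfbi in BMDM_T against BMDM_H (x axis) under each processing alternative (rows), with the edgeR, DESeq2 or limma adjusted p at the right; filled points are under 0.05 and the black point is the value as reported. All points are above 0, from 0.54 to 0.80, and 5 of the 20 alternatives are open.

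For the other 3 genes the marrow intervals show how large a difference could have gone unseen. Tgfb1 had a log2 fold change of 0.13 ± 0.18 in BMDM_T against BMDM_H, with a 95% interval of 0.843-fold to 1.42-fold (adjusted p = 0.78 in edgeR). Tgfbr1 had -0.12 ± 0.23, with an interval of 0.656-fold to 1.29-fold (adjusted p = 0.926 in edgeR). Tgfbr2 had -0.01 ± 0.47, with an interval of 0.5-fold to 1.96-fold (adjusted p = 0.996 in edgeR). A difference of up to those bounds is compatible with these libraries, and the widest interval belongs to the gene with the fewest counts. The order of levels was thus TAM above both marrow groups for all 4 genes, and BMDM_T and BMDM_H did not differ beyond their spread for Tgfb1, Tgfbr1 and Tgfbr2.

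**Figure D3:**
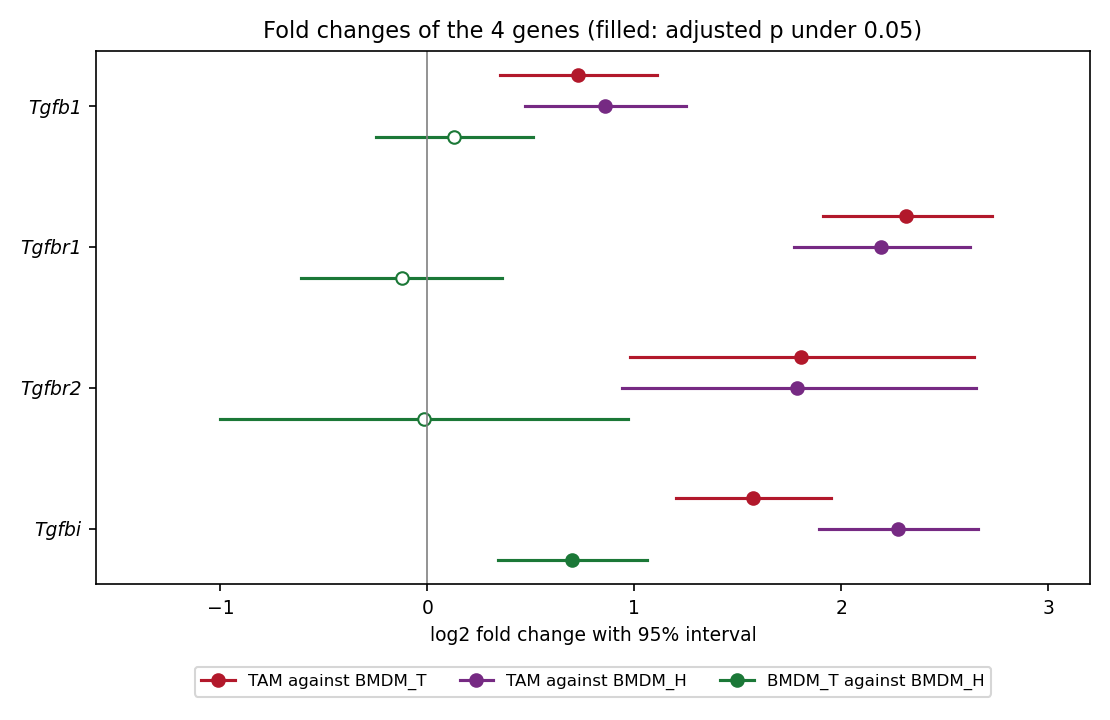
Log2 fold change of each gene (points) with its 95% interval (lines) in TAM against BMDM_T (red), TAM against BMDM_H (purple) and BMDM_T against BMDM_H (green); filled points have an adjusted p under 0.05. Both TAM comparisons share the TAM libraries, and Tgfbr2 has the widest interval of the 4 genes in each comparison, at 0.98 to 2.64 in TAM against BMDM_T and -1 to 0.97 in BMDM_T against BMDM_H.

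The remaining genes of the pathway were taken from a list of 65 ligands, activators, receptors, signal carriers, inhibitors and targets, of which 51 were in the table and 44 were tested. In TAM against BMDM_T 23 were called higher and 6 lower, and in TAM against BMDM_H 24 higher and 5 lower. That is 65.9% called in each, beside 58.9% and 56.3% of all genes, and the list medians were 1.22 and 1.13 on the log2 scale, beside 0.03 and 0.02 over all genes. Of the 44 genes, 17 (38.6%) would not have passed the filter on low counts with the marrow libraries alone, as held for 14.8% of all genes tested. Where such a gene passed through its level in TAM, a higher level there is partly fixed by the filter. The list's counts and medians thus support no direction. Passing through TAM does not describe all 17. Snai1, for example, averaged 5.38 CPM in TAM and 16.7 in BMDM_T. Among the 27 that marrow libraries also kept, 10 were higher and 5 lower than in BMDM_T (37% and 18.5%), beside 25.6% and 32.4% of the 6405 genes of that kind. The median of these 27 was 0.32 against BMDM_T and 0.4 against BMDM_H, beside -0.1 and -0.09 over the 6405. Tgfb1, Tgfbr1, Tgfbr2 and Tgfbi would each have passed on the marrow libraries alone.

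Among the ligands, Tgfb3, which signals through the same receptors, was high in TAM and near 0 in marrow, and it passed the filter only with the TAM libraries included. It had 630 counts in the TAM libraries, 3 in BMDM_T and 5 in BMDM_H. The levels were 98.3, 64.2 and 85.8 CPM in TAM, 0 to 1.68 CPM in BMDM_T and 0.796 to 2.6 CPM in BMDM_H. The ratio of summed counts, scaled by library size, was 114 over BMDM_T (95% counting interval 38.8 to 553) and 57.1 over BMDM_H (24.3 to 176), and both differences were called (adjusted p = 3.21e-11 and 1.86e-10 in edgeR). Tgfb2 was not analysed here.

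Genes that store and release the ligand were mixed. Of 8 tested, 5 were higher and 1 lower in TAM than in BMDM_T, and 5 higher and 1 lower than in BMDM_H. Over all genes tested, 30.1% and 28.0% were called higher and 28.7% and 28.3% lower. Of the 8, 4 were higher than both marrow groups (Ltbp3, Itgav, Mmp14 and Emilin1). Among these 4, Ltbp3 and Itgav would not have passed the filter on marrow libraries alone. Mmp14, a membrane metalloprotease that can release latent TGF-beta, averaged 769 ± 66.9 CPM in TAM (SD, n = 3) and 15.9 ± 6.81 in BMDM_T and 11.1 ± 6.45 in BMDM_H (SD, n = 4 each), with log2 fold changes of 5.59 ± 0.28 and 6.34 ± 0.32 (adjusted p = 1.42e-12 and 1.47e-12 in edgeR). Mmp9, a neutrophil gelatinase that can also release it, went the other way, at 29.8 ± 16.4 CPM in TAM, 2580 ± 721 in BMDM_T and 1160 ± 59.6 in BMDM_H. Its log2 fold changes were -6.50 ± 0.38 and -5.34 ± 0.36 (adjusted p = 1.47e-11 and 1.57e-10 in edgeR), beside the neutrophil marker sums given above. Ltbp3, a latent TGF-beta binding protein, was higher in TAM, with log2 fold changes of 3.04 ± 0.39 and 2.46 ± 0.38 (adjusted p = 9.66e-07 and 1.29e-05 in edgeR). Emilin1, a matrix protein that restrains processing of the TGF-beta precursor, averaged 84.8 CPM in TAM and 30 CPM in BMDM_H (log2 fold change 1.45 ± 0.20, adjusted p = 3.2e-06 in edgeR).

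Thbs1, which encodes the activator thrombospondin, had the largest marrow fold change of the 44 pathway genes tested. It averaged 54.7 ± 21.1 CPM in TAM (SD, n = 3), 5.04 ± 2.02 in BMDM_T and 34.7 ± 5.61 in BMDM_H (SD, n = 4 each). Its log2 fold change was 3.39 ± 0.33 in TAM against BMDM_T (adjusted p = 2.5e-08 in edgeR) and 0.60 ± 0.26 in TAM against BMDM_H (adjusted p = 0.052 in edgeR). In BMDM_T against BMDM_H it was -2.78 ± 0.35 (adjusted p = 3.52e-05 in edgeR), so TAM and healthy marrow stood nearer to each other than either did to marrow of tumor-bearing mice.

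The other receptors tested, 3 in number, were called higher in TAM. None of the 3 would have passed the filter on marrow libraries alone, so their direction was partly fixed by the filter and supports nothing on its own. Eng, the coreceptor endoglin, had 46.1, 47.7 and 68.5 CPM in TAM, 3.23 to 8.12 CPM in BMDM_T and 6.37 to 18.2 CPM in BMDM_H. Acvrl1, the type I receptor ALK1, had 66.7, 58.9 and 72.6 CPM in TAM, 6.72 to 15.3 CPM in BMDM_T and 7.44 to 8.75 CPM in BMDM_H. Neither gene's TAM libraries overlapped marrow. The log2 fold changes against BMDM_T and BMDM_H were 3.47 ± 0.33 and 2.58 ± 0.32 for Eng, and 2.51 ± 0.25 and 3.01 ± 0.28 for Acvrl1, with adjusted p from 1.36e-08 to 7.85e-07 in edgeR. For Nrp1, a coreceptor of several ligands, they were 2.82 ± 0.45 and 1.42 ± 0.40 (adjusted p = 1.53e-05 and 0.00446 in edgeR). Eng and Acvrl1 are also genes of endothelial cells. The endothelial list includes Eng. Its sum was 108 to 136 CPM in TAM, 28.9 to 40.3 CPM in BMDM_T and 24.2 to 28.7 CPM in BMDM_H. Pecam1 averaged 62.2, 23.4 and 11.6 CPM in the same order and Kdr 7.18, 1.01 and 0.664. Tie1 went the other way, at 1.5, 3.53 and 3.97 CPM. The part of endothelial cells in these values was not tested.

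The intracellular signal carriers gave few calls. None of the 8 tested was called higher in TAM, and 2 were lower than in BMDM_T (Tab1 and Tab2) and 2 lower than in BMDM_H (Tab1 and Map3k7), beside 28.7% and 28.3% of all genes called lower. The list medians were -0.07 and -0.21 on the log2 scale. Smad3, a carrier of the receptor signal, had 16.7, 23.9 and 20.7 CPM in TAM, 15.3 to 23.1 CPM in BMDM_T and 18.2 to 23.9 CPM in BMDM_H. Its log2 fold changes were 0.06 ± 0.25 and -0.01 ± 0.26 (adjusted p = 0.837 and 0.979 in edgeR), and their sign turned under other settings. Smad4, its common partner, averaged 40.3 CPM in TAM, 43.9 in BMDM_T and 53.5 in BMDM_H, with log2 fold changes of -0.11 ± 0.21 and -0.48 ± 0.21 (adjusted p = 0.665 and 0.059 in edgeR). Against BMDM_H, Smad4 passed the threshold without BMDM_H replicate 3 (-0.60, adjusted p = 0.0266 in edgeR), without replicate 4 (-0.61, 0.0194) and without both (-0.77, 0.00437). Smad2 had 15 counts in TAM, 9 in BMDM_T and 4 in BMDM_H, too few to test.

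The TAK1 branch was lower in TAM where it was called. Tab1, a TAK1 adaptor, averaged 22.3 CPM in TAM, 35.6 in BMDM_T and 45 in BMDM_H, with log2 fold changes of -0.69 ± 0.22 and -1.05 ± 0.22 (adjusted p = 0.0111 and 0.000463 in edgeR). The call against BMDM_T was lost with total counts only (-0.54, adjusted p = 0.0507 in edgeR) and without BMDM_T replicate 4 (-0.54, 0.0572). Map3k7, TAK1 itself, had -1.32 ± 0.35 against BMDM_H (adjusted p = 0.00307 in edgeR). Tab2 had -0.50 ± 0.16 against BMDM_T (adjusted p = 0.0125 in edgeR), lost with total counts only (-0.35, 0.0965), without TAM replicate 1 (-0.43, 0.0559) and without TAM replicate 3 (-0.44, 0.0555).

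Of 11 inhibitors of the pathway tested, 7 were called higher and 1 lower than in both marrow groups, with list medians of 1.40 and 1.51 on the log2 scale. Of the 7 higher ones, 4 (Skil, Tgif1, Pmepa1 and Ldlrad4) would not have passed the filter on marrow libraries alone. Among the 7 inhibitors that would have, 3 were higher and 1 lower in each comparison, beside 25.6% and 24.3% higher and 32.4% and 31.6% lower over all genes of that kind. Smad7, the inhibitory Smad that the pathway itself induces, had 20.6, 30.2 and 38.3 CPM in TAM, 9.92 to 16.2 CPM in BMDM_T and 8.04 to 15.6 CPM in BMDM_H. The TAM libraries were all above the marrow libraries, with log2 fold changes of 1.29 ± 0.29 and 1.51 ± 0.31 (adjusted p = 0.00063 and 0.000327 in edgeR). Pmepa1, a membrane protein that sequesters receptor-regulated Smads, had 112, 121 and 69 CPM in TAM, 0 to 1.8 CPM in BMDM_T and 0 to 1.86 CPM in BMDM_H. Its 696 TAM counts against 3 in each marrow group gave summed ratios of 126 (95% counting interval 42.8 to 611) and 105 (35.8 to 511), and both differences were called (adjusted p = 9.75e-11 and 3.39e-10 in edgeR).

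The corepressors Ski and Tgif1 and the receptor-binding immunophilin Fkbp1a were also higher in TAM. Their log2 fold changes against BMDM_T were 1.70 ± 0.25, 3.98 ± 0.34 and 1.40 ± 0.18, with adjusted p of 5.76e-06, 3.06e-09 and 1.04e-06 in edgeR. Against BMDM_H they were 1.73 ± 0.26, 2.13 ± 0.29 and 1.42 ± 0.18, with adjusted p of 1.01e-05, 2.46e-06 and 1.55e-06 in edgeR. Fkbp1a averaged 142 CPM in TAM, 53.6 CPM in BMDM_T and 53 CPM in BMDM_H. Ski and Fkbp1a had nearly equal values in both comparisons, while Tgif1 averaged 59.3 CPM in TAM, 3.62 CPM in BMDM_T and 13.5 CPM in BMDM_H.

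Target genes other than Tgfbi were higher in TAM in 7 of 13 against BMDM_T, with 2 lower, and in 8 of 13 against BMDM_H, with 1 lower. Of all genes tested, 30.1% and 28.0% were called higher and 28.7% and 28.3% lower. Among the 7 targets that would have passed the filter on marrow libraries alone, 4 were higher than in BMDM_T and 5 higher than in BMDM_H, with 1 lower in each. Over all genes of that kind, 25.6% and 24.3% were higher and 32.4% and 31.6% lower. Cdkn1a, a cell cycle inhibitor, averaged 1300 ± 67.2 CPM in TAM (SD, n = 3), 49.1 ± 15 in BMDM_T and 87 ± 22.9 in BMDM_H (SD, n = 4 each), with log2 fold changes of 4.73 ± 0.23 and 3.86 ± 0.22 (adjusted p = 8.95e-13 and 1.22e-11 in edgeR). The inhibitors of differentiation split, since Id2 was higher in TAM (2.42 ± 0.18 and 1.75 ± 0.17, adjusted p = 3.75e-10 and 4.4e-08 in edgeR) and Id1 lower (-3.30 ± 0.25 and -3.08 ± 0.25, adjusted p = 4.62e-10 and 1.95e-09 in edgeR). Id1 averaged 16.9 CPM in TAM, 173 in BMDM_T and 150 in BMDM_H.

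Genes raised by tissue dissociation and stress summed to 8050 to 8450 CPM in TAM, 2880 to 5200 CPM in BMDM_T and 4510 to 5590 CPM in BMDM_H. Members of this list split. Junb, also on the target list, averaged 2380, 1410 and 1380 CPM in the same order, and Nr4a1 1600, 104 and 372. Ier2 averaged 373, 1210 and 1380 CPM, and Egr1 126, 287 and 338. Fibroblast markers summed to 11.6 to 35, 8.4 to 18 and 5.63 to 54.6 CPM in the same order, and mammary epithelial and 4T1 markers to 75 to 116, 20.5 to 41.6 and 32.6 to 65.1 CPM. Epcam was at 1.94, 2.31 and 2.83 CPM on average. Thus the fibroblast ranges overlapped and the stress and epithelial sums were higher in TAM. The part of any of them in the values of Cdkn1a and the other targets was not tested.

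**Figure D4:**
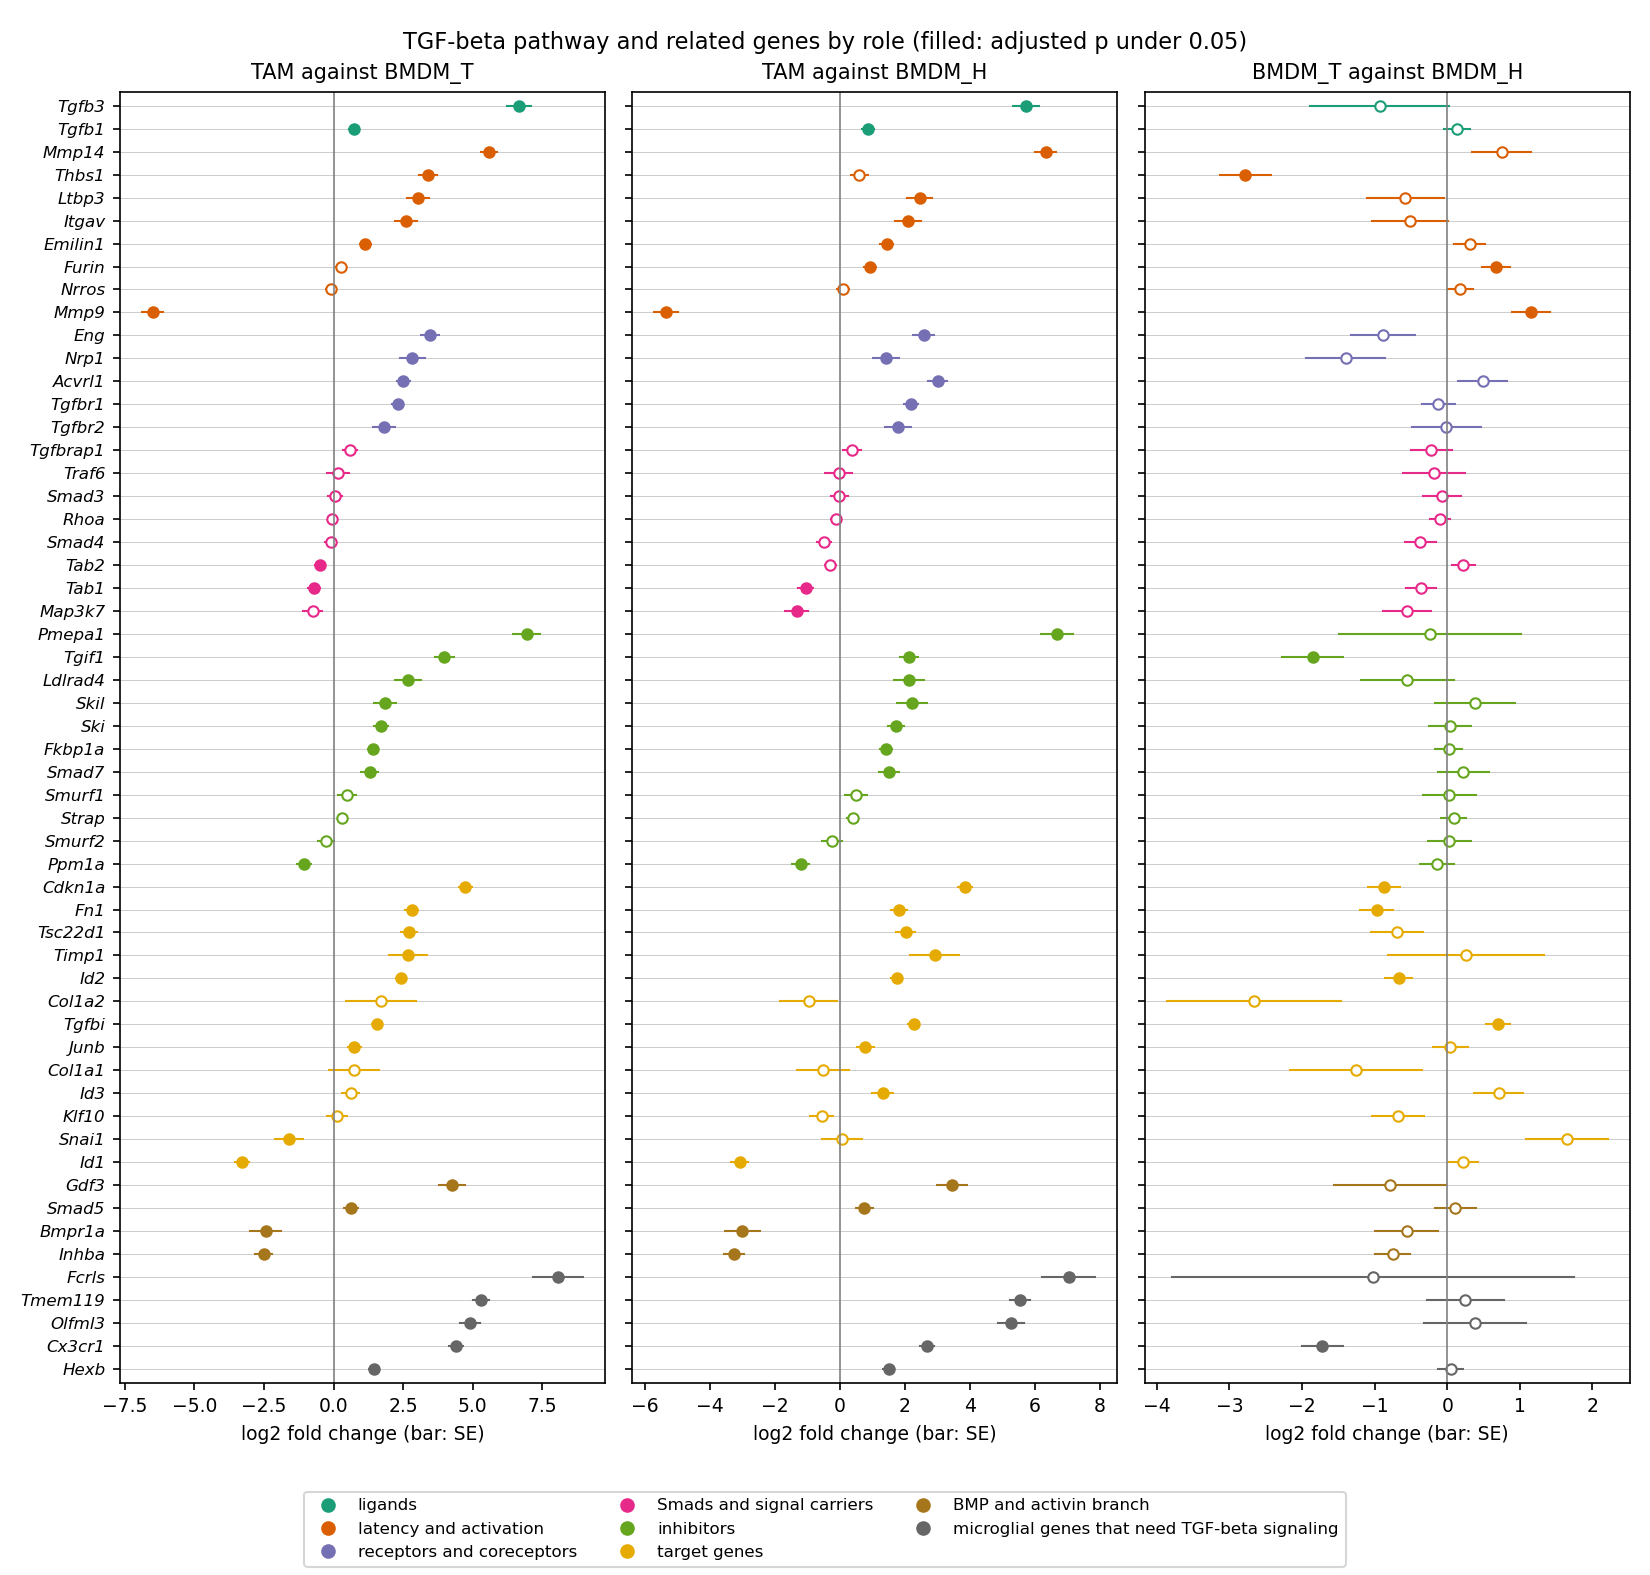
Log2 fold change (x axis, a different range in each panel) with its SE for the TGF-beta pathway and related genes shown (rows, coloured by role) in TAM against BMDM_T, TAM against BMDM_H and BMDM_T against BMDM_H; filled points have an adjusted p under 0.05. The receptors and 7 of the inhibitors are filled to the right of 0 in both TAM panels, none of the signal carriers is, and in marrow 7 pathway genes besides Tgfbi are filled.

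In marrow, 2 of the 44 pathway genes were higher in BMDM_T and 5 lower (15.9% called, beside 4.82% of all genes), with a list median of -0.16 beside -0.01. Mmp9 was higher, averaging 2580 CPM in BMDM_T and 1160 in BMDM_H (log2 fold change 1.15 ± 0.26, adjusted p = 0.0109 in edgeR). Furin, the protease that cuts the TGF-beta precursor, averaged 151 ± 38 CPM in BMDM_T and 95.1 ± 5.87 in BMDM_H (SD, n = 4 each; log2 fold change 0.67 ± 0.19, adjusted p = 0.0445 in edgeR). Besides Thbs1, the lower genes were Tgif1 (-1.85 ± 0.42, adjusted p = 0.0106 in edgeR), Fn1 (-0.97 ± 0.23, 0.0152), Cdkn1a (-0.87 ± 0.22, 0.0258) and Id2 (-0.67 ± 0.18, 0.0312). Fn1 encodes fibronectin, which monocytes also express and which is on the monocyte marker list. It averaged 141 ± 32 CPM in BMDM_T and 272 ± 100 CPM in BMDM_H (SD, n = 4 each).

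Single libraries decided many of these marrow calls. The count of lower pathway genes was 3 when BMDM_T replicate 1, BMDM_T replicate 3, BMDM_T replicate 4 or BMDM_H replicate 2 was left out, and 2 when BMDM_H replicate 1 was left out. Furin lost its call without BMDM_T replicate 1 or 4 or any one BMDM_H library (0.49 to 0.70, largest adjusted p = 0.157 in edgeR). Id2 lost it without BMDM_T replicate 1, 3 or 4 or BMDM_H replicate 1, 2 or 3 (largest adjusted p = 0.108 in edgeR). Cdkn1a lost it without BMDM_T replicate 1 or 4 or BMDM_H replicate 1 or 2 (largest 0.121). Fn1 lost it without BMDM_T replicate 3 (-0.85, 0.0613) or BMDM_H replicate 2 (-0.69, 0.0931), and Tgif1 without BMDM_H replicate 1 (-1.49, 0.0807) and in limma-voom (-1.70, 0.0615). Mmp9 lost its call without both BMDM_H libraries of lowest total (1.18, adjusted p = 0.098 in edgeR). Thbs1 kept its call in all alternatives run.

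Microglial genes whose expression is known to need TGF-beta signaling in the mouse brain were also present in TAM. All 5 tested of 8 listed were called higher than in both marrow groups, beside 30.1% and 28.0% of all genes, with list medians of 4.89 and 5.27 on the log2 scale. Of the 5, Tmem119, Olfml3 and Fcrls would not have passed the filter on marrow libraries alone, so their direction was partly fixed by the filter. Tmem119 averaged 157 CPM in TAM, 3.95 in BMDM_T and 4.16 in BMDM_H (log2 fold changes 5.29 ± 0.28 and 5.54 ± 0.31, adjusted p = 3.15e-12 and 7.29e-12 in edgeR). Olfml3, a secreted matrix protein, averaged 82.8, 2.92 and 2.57 CPM (4.89 ± 0.36 and 5.27 ± 0.40, adjusted p = 3.52e-10 and 7.25e-10 in edgeR). Fcrls, an Fc receptor-like gene, had 548 counts in TAM, 1 in BMDM_T and 2 in BMDM_H. The summed ratios were 297 (95% counting interval 53.1 to 11800) and 124 (34.2 to 1030). Its level varied widely between TAM libraries, at 149, 99.7 and 23.5 CPM, a spread that the counting intervals do not cover. Cx3cr1, the fractalkine receptor, averaged 217 CPM in TAM, 10 in BMDM_T and 34.4 in BMDM_H, and its difference between the marrow groups was called as well (-1.72 ± 0.28, adjusted p = 0.00074 in edgeR). These genes mark macrophages of several tissues, and the macrophage marker sums given above moved with them.

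The genes whose pattern was most like each of the 4 were found as the smallest root mean square difference between centred log2 CPM profiles over the 11 libraries, among 3917 or 3918 genes. Nearest to Tgfb1 were Copb2 (0.17), Psmb6 (0.17) and Dnajb11 (0.18), where the median over all genes compared was 0.59. Nearest to Tgfbr1 were Slc25a4 (0.22), Cd40 (0.24) and Itpripl2 (0.25), with a median of 1.06. Tgfbr2 had no neighbour as close: Mfsd1 was at 0.60, Icam1 at 0.73 and Ms4a6d at 0.75, with a median of 1.47. Nearest to Tgfbi were Fam162a (0.20), Calr (0.23) and Atp1b3 (0.24), with a median of 1.01. Between the 4 genes themselves, Tgfbr1 and Tgfbi differed by 0.53, Tgfb1 and Tgfbi by 0.67 and Tgfb1 and Tgfbr1 by 0.71. Tgfbr2 differed from the other 3 by 0.97 to 1.20. In BMDM_H replicate 3, where Tgfbr2 had 0 counts, its centred log2 CPM was -3.547. Tgfb1, Tgfbr1 and Tgfbi were at -0.678, -0.242 and -0.902 there. The distances of Tgfbr2, also those to its neighbours, thus rest partly on this library.

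**Figure D5:**
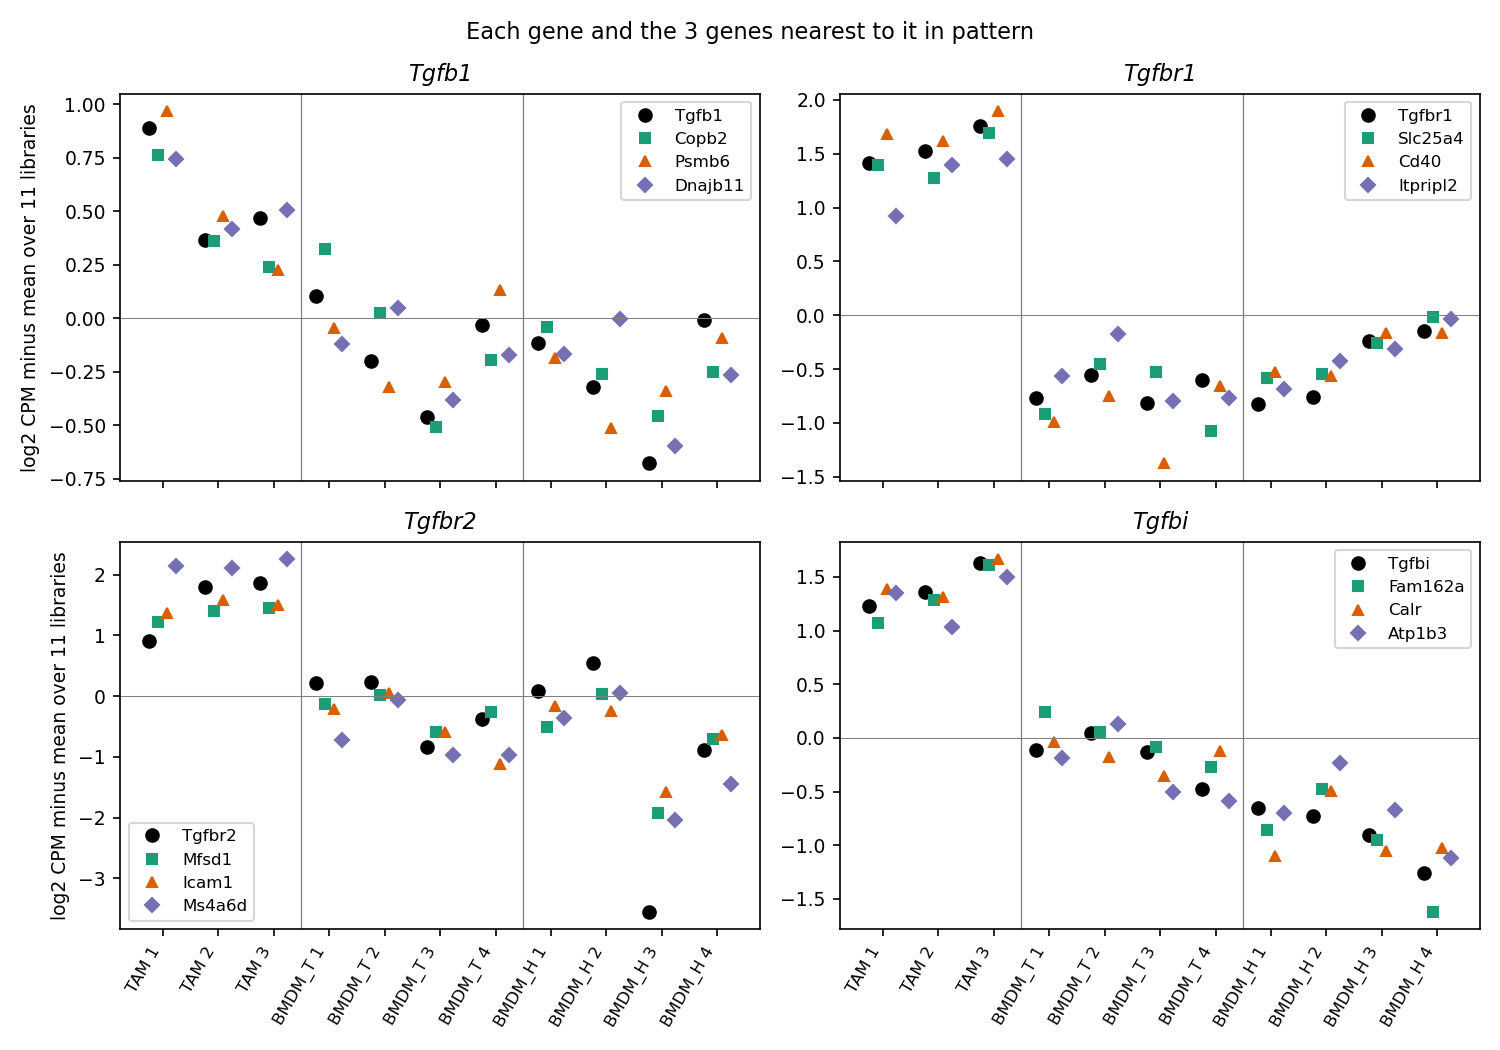
Log2 CPM minus its mean over the 11 libraries (y axis, a separate scale in each panel) in each library (x axis) for each of the 4 genes (black) and the 3 genes nearest to it in pattern (coloured markers). The neighbours of Tgfb1, Tgfbr1 and Tgfbi lie within root mean square differences of 0.17 to 0.25, while those of Tgfbr2 lie at 0.60 to 0.75, and BMDM_H replicate 3, with 0 counts of Tgfbr2, is its lowest point.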

How the data were processed

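The deposited table holds raw counts of 3'-end mRNA libraries with molecular identifiers, per the labels' protocols. bcl2fastq, STAR 2.4.2a, HTSeq and build mm10 are named per the submitters' processing notes. The annotation, strand setting, gene filter and any collapsing of identifiers were not given in the sources used here. Of 24421 rows, 10207 carry a symbol, and the 14214 without one hold no count of the 11 libraries of batch 1. The 6 batch 2 libraries (4 of BMDM_H, 2 of mammary gland macrophages) had Spearman correlations of -0.02 to 0 with batch 1 over the named rows, so their rows were not assigned to genes. They enter no comparison, and all comparisons lie within batch 1. The 17 symbols turned into dates were not named.

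All 3 groups entered 1 fit in edgeR 4.0.16 (R 4.3.3) (filterByExpr, TMM, estimateDisp, glmQLFit, then glmQLFTest), with Benjamini-Hochberg adjustment over the 7518 genes tested. SE is the unshrunken log2 fold change over the square root of F, and the 95% intervals use the t distribution of that fit. CPM refer to the genes in the table and are not compared between genes. Counting intervals and floors (3 counts) cover counting error only. Replicates differed by more than sampling noise (chi-square per degree of freedom 2.67 to 14.62). Nothing in the labels ties replicates to separate mice, so the p-values reflect only the spread among these samples, possibly a technical one.

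The labels number the replicates without saying what a number shares. Same-numbered BMDM_T and BMDM_H libraries shared deviations from their group means (across genes, r = 0.22, 0.24, 0.13 and 0.13), all over 0.1, and were treated as pairs in an alternative. For TAM the values were -0.05 to 0.08. The alternatives were DESeq2 size factors, total counts only, no filter, DESeq2 1.42.0, limma-voom 3.58.1, only the groups compared, the replicate block, each library left out and both BMDM_H libraries of lowest total left out. The block on marrow groups alone was added after seeing the data. The procedure was tested on simulated data.

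The 4 genes, the lists and the tests were chosen with earlier results of these data known. Named pathway genes are those with the smallest p among the called, at most 4 per role and with at least 10 counts in the higher group, plus the other ligands, receptors and Smads. Pattern neighbours needed a mean of at least 30 CPM. Genes of the lists without a row of their symbol were not analysed here. A target gene that the rule names is counted in its list but is not reported here.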

Additional observations from a re-analysis of the deposited data

Results flagged for a closer look

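In groups of 4 libraries, a highest or lowest value was set apart where its gap to the next value exceeded Dixon's 95% critical share of the group's range. Over 72 groups of the genes described, 7 met this, and chance gives about 1 in 20. None was Tgfb1, Tgfbr1, Tgfbr2 or Tgfbi. In BMDM_H replicate 4, the library of lowest total, Ski was at 31.2 CPM (18.5 to 20.5 in the others), Bmpr1a at 23.4 CPM (8.04 to 9.55), Olfml3 at 5.2 CPM (1.59 to 1.86) and Emilin1 at 23.4 CPM (31.6 to 33). These values rest on 12, 9, 2 and 9 counts in that order. In BMDM_H replicate 3, Map3k7 was at 9.3 CPM (26 to 28.7 in the others). In BMDM_H replicate 2, Cx3cr1 was at 25.7 CPM (36.4 to 38.2). In BMDM_T replicate 4, Fcrls was at 0.902 CPM, which is 1 count, where the others had no count.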

How the results depend on the processing

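The 8 differences of Tgfb1, Tgfbr1, Tgfbr2 and Tgfbi in TAM kept their direction and their call in each of 19 alternatives, from 0.55 to 0.88 for Tgfb1 against BMDM_T (largest adjusted p = 0.0221) to 2.09 to 2.36 for Tgfbi against BMDM_H. Leaving out 1 library at a time, 4107 to 4450 genes were called in TAM against BMDM_T, 3815 to 4297 in TAM against BMDM_H and 238 to 409 in BMDM_T against BMDM_H. The lowest of these, 238 beside 362, was without BMDM_H replicate 2.

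In BMDM_T against BMDM_H, leaving out both BMDM_H libraries of lowest total gave 179 calls, a Tgfbi value of 0.54 and a Tgfbr1 value of 0.12, with none of the pathway genes higher (0, beside 2). Total counts only gave a Tgfbi value of 0.59, and it and limma-voom each left 1 pathway gene higher. Single libraries left out gave 0.60 to 0.80 for Tgfbi, 1 to 2 pathway genes higher and 2 to 5 lower; 1 was higher without BMDM_T replicate 1 or 4 or any one BMDM_H library. Tgfbr2, near 0 as reported, turned to 0 with DESeq2 size factors, 0.01 without the filter, 0.10 in DESeq2 and 0.42 in limma-voom, and ran from -0.31 to 0.48 with 1 library left out. With the replicate block it was 0.06, and 0.16 with the block on marrow groups alone, which called 662 genes. The replicate block over the 3 groups called 4387, 4262 and 468 genes in the 3 comparisons and changed no call of the 4 genes.

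Smad3 turned sign around 0: 0 with DESeq2 size factors, 0.04 with total counts only and 0.02 in DESeq2 in TAM against BMDM_H, and -0.03 with the replicate block in TAM against BMDM_T. With 1 library left out it ran from -0.06 to 0.17 against BMDM_T, from -0.12 to 0.11 against BMDM_H and from -0.16 to 0.05 between the marrow groups. Smad4 in TAM against BMDM_T was 0.04 and Smad5 between the marrow groups 0 with total counts only, where all genes shifted by a median of 0.18 against BMDM_T. Apart from fewer libraries, the cause of these changes was not tested. Depth limits Tgfbr2 in marrow most, with 59 counts in BMDM_T and 53 in BMDM_H.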

Other observations

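The related BMP and activin branch was split. Of 18 listed genes 10 were in the table and 4 were tested, and all 4 were called against both marrow groups, beside 58.9% and 56.3% of all genes tested. Gdf3 and Bmpr1a would not have passed the filter on low counts with the marrow libraries alone. Gdf3, a ligand of the family, averaged 34.1 CPM in TAM, 1.55 in BMDM_T and 3.7 in BMDM_H, with log2 fold changes of 4.25 ± 0.47 and 3.46 ± 0.46 (adjusted p = 1.44e-07 and 1.73e-06 in edgeR). Inhba, the activin A subunit, averaged 10 CPM in TAM, 53.9 in BMDM_T and 91.3 in BMDM_H (-2.51 ± 0.30 and -3.26 ± 0.30, adjusted p = 4.52e-07 and 1.18e-08 in edgeR). Bmpr1a, a BMP type I receptor, averaged 1.24, 7.38 and 12.6 CPM (-2.44 ± 0.55 and -3 ± 0.54, adjusted p = 0.000538 and 6.09e-05 in edgeR). Smad5, a carrier of BMP signals, averaged 27.5, 17.7 and 15.8 CPM (0.63 ± 0.25 and 0.75 ± 0.26, adjusted p = 0.0335 and 0.0193 in edgeR). Its calls were lost without TAM replicate 2 (0.56 and 0.68, adjusted p = 0.106 and 0.0612), without TAM replicate 3 (0.58 and 0.70, 0.0951 and 0.0561), without BMDM_T replicate 3 (0.50, 0.112) or 4 (0.58, 0.0849) against BMDM_T, and without BMDM_H replicate 1 (0.65, 0.074) against BMDM_H.

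A few pathway genes with too few counts to be tested had most of their counts in TAM. They were chosen after their values were seen. Dab2, an adaptor of the receptors, had 74 counts in TAM and 0 in both marrow groups, which is at least 13.4-fold higher than in BMDM_T and at least 11.2-fold higher than in BMDM_H with a floor of 3 counts for each group as a whole. Mmp2, a gelatinase that can release the ligand, had 60 counts in TAM, 0 in BMDM_T and 1 in BMDM_H, at least 10.8-fold higher than in BMDM_T and with a ratio of 27.2 over BMDM_H (95% counting interval 4.7 to 1090). Smad6, the inhibitory Smad of the BMP branch, had 62 counts in TAM, 2 in BMDM_T and 5 in BMDM_H, with ratios of 16.8 (4.46 to 142) and 5.62 (2.28 to 17.9).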
